A study of Mus musculus with 10 samples.

Results

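The 39 genes described here serve the folding, membrane translocation and quality control of proteins in the endoplasmic reticulum (ER), and the sensing of ER stress. They were taken as a list of names with no threshold on measured values, although earlier results of these data were known when the list was made, and all 39 were found among the 51707 genes that had a transcript in the quantification. All 39 also passed the filter on low counts, which kept 17495 genes for testing. By role, 9 are chaperones and co-chaperones, 6 are lectin chaperones and disulphide isomerases, and 7 act in ER-associated degradation. A further 7 are stress sensors and their transcription factors, and 10 belong to the translocon, the translocon-associated protein (TRAP) complex and the signal peptidase.

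The data are RNA sequencing libraries of epithelial cells that were sorted by flow cytometry from orthotopic tumours of pancreatic ductal adenocarcinoma (PDAC), with 5 libraries in each of 2 groups. Both groups started from the same T6-LOH organoids, derived from the KPC mouse model of PDAC. The organoids were transplanted together with pancreatic stellate cells (PSCs), the fibroblast precursors of the pancreas. In the Egfr KO PSC group the stellate cells were the Egfr knockout clone B4 of the line PSC4. In the Egfr WT PSC group they were PSC4 cells labelled ROSA, read here as the control line. The hosts were NSG mice per the title, a strain that lacks mature B, T and natural killer cells but keeps macrophages, vessels and red cells; the strain label reads C57BL/6J and does not say whether it refers to the hosts or to the transplanted cells. Neither the age of the hosts nor the antibodies of the sort are given in the sources used here. Since there was 1 knockout clone, Egfr loss and the clone cannot be told apart. The labels do not say that the libraries came from separate mice, so p-values measure only the spread between these libraries.

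Proteins that enter the secretory pathway cross the ER membrane through the Sec61 channel, lose their signal peptide, and fold with the help of the chaperone BiP, of lectin chaperones that read their glycans and of isomerases that form disulphide bonds. Proteins that fail to fold are sent back to the cytosol and degraded. When unfolded proteins build up, the sensors IRE1, ATF6 and PERK start the unfolded protein response: IRE1 removes a short intron from the Xbp1 mRNA so that an active transcription factor is made, ATF6 is cut to release one, and PERK slows translation while favouring that of Atf4. The targets of these factors include most of the 39 genes, and secretory tissues such as the pancreas depend on the pathway heavily.

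Some of the genes share regulatory letters as well as functions, and the sequences below show where. Of the 39 genes, 31 had a window of 300 bases in the RefSeq promoter table (build GRCm38.p6), made of 250 bases before and 50 after the start site. The windows were searched on both strands for 4 motifs named in the literature on this response. The ER stress response element (ERSE), spelled CCAAT, then 9 free bases, then CCACG, is the site of ATF6 and of the factor NF-Y. It was present in 9 of the 31 windows (29.0%), against 37 of the 27025 genes with a window (0.137%). The related ERSE-II, spelled ATTGG, then 1 free base, then CCACG, was present in 2 of 31 (6.45%), against 12 of 27025 genes (0.0444%). The XBP1 element TGACGTGG was in 0 of 31 and in 0.714% of all windows, and the ATF4 element TGATGCAA was in 1 of 31 (3.23%) and in 1.03% of all windows. No 2 of the 13 sites in these genes overlapped. The motifs come from the literature on the response that these genes serve, so the higher shares are no independent finding. A match is a description of the letters and does not show that a factor binds there. The 250 bases before the start of Hspa5, which encodes BiP, are shown as the best known example of such a promoter, chr2:34771840-34772089 on the plus strand, with the fixed letters of the ERSE in capitals.
Hspa5: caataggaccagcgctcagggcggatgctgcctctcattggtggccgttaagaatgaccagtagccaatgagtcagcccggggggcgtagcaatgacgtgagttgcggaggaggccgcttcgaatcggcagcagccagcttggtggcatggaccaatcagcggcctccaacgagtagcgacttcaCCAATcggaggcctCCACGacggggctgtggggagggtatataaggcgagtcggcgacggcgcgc

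The ERSE of the other 8 genes is shown with 10 bases on each side, on the strand of the motif, so that the fixed ends and the free middle can be compared. Coordinates are those of the motif itself in GRCm38.p6.
Hsp90b1, chr10:86705533-86705551, minus strand gene: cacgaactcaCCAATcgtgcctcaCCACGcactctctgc
Hsp90b1, chr10:86705638-86705656, second site: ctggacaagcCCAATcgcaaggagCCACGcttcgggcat
Dnajc3, chr14:118937827-118937845, plus strand gene: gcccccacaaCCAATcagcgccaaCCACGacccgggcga
Creld2, chr15:88819520-88819538, plus strand gene: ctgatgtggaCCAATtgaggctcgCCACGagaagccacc
Calr, chr8:84847075-84847093, minus strand gene: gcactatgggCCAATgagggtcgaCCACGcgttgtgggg
Canx, chr11:50325800-50325818, minus strand gene: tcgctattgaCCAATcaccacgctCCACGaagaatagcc
Pdia6, chr12:17266491-17266509, plus strand gene: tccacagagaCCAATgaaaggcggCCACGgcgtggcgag
Syvn1, chr19:6046532-6046550, plus strand gene: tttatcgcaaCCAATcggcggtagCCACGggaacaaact
Derl3, chr10:75893242-75893260, plus strand gene: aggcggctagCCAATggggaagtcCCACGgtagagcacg
The 10 sites, that of Hspa5 included, ended between positions -194 and -26, counted at the base nearest the start site. In 4 of the 10 the motif read along the strand opposite to the gene.

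The ERSE-II of Dnajb11 and Herpud1 and the ATF4 element of Herpud1 are shown with 5 bases on each side. Herpud1 was the one gene among the 31 with sites of more than 1 kind.
Dnajb11, chr16:22857852-22857862, plus strand gene: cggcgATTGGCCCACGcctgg
Herpud1, chr8:94386377-94386387, plus strand gene: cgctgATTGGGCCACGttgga
Herpud1, chr8:94386317-94386324, opposite strand: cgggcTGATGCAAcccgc

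As a set the 39 genes lay at nearly the same level in both groups. No member passed the test, edgeR's quasi-likelihood test with an adjusted p under 0.05 over all genes tested, a threshold passed by 0% of all genes. The lowest edgeR adjusted p of a member was 0.396, and DESeq2 called 0 members against 0.655% of all genes. Lower values with Egfr KO PSCs were found for 18 members and higher values for 21, so 46.2% were lower, against 49.9% of all genes tested. The median log2 fold change of the members was 0.0089, against 0.00041 for all genes. At an unadjusted edgeR p under 0.05 stood 3 members (7.69%), against 8.15% of all genes, and all 3 were lower, where 4.6% of all genes were lower at that p. These 3 were Xbp1, the transcription factor gene of the IRE1 branch, Ern2, the second IRE1 gene, and Sdf2l1, a co-chaperone gene. The number at that p was 5 (12.8%) without any 1 of Egfr KO PSC libraries 1, 2 and 3, with 4 of the 5 lower each time. The shares of all genes there were 9.54%, 7.9% and 10.8%. Without Egfr WT PSC library 5 the number was 7 (17.9%, against 11.1% of all genes), 6 of them lower. It fell to 2 (5.13%) without any 1 of Egfr KO PSC library 4 and Egfr WT PSC libraries 3 and 4. The shares of all genes there were 5.98%, 5.61% and 7%. In 0 members did the groups separate without overlap, against 1.52% of all genes.

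The intervals show how large a difference these libraries could have held. The 95% confidence interval of the log2 fold change lay within 0.5 of 0 on both sides for 25 members and within 1 for 36. The estimate itself was smaller than 0.5 in size for 36 members. The lowest count of any member in any library was 35, for Derl3.

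**Figure D1:**
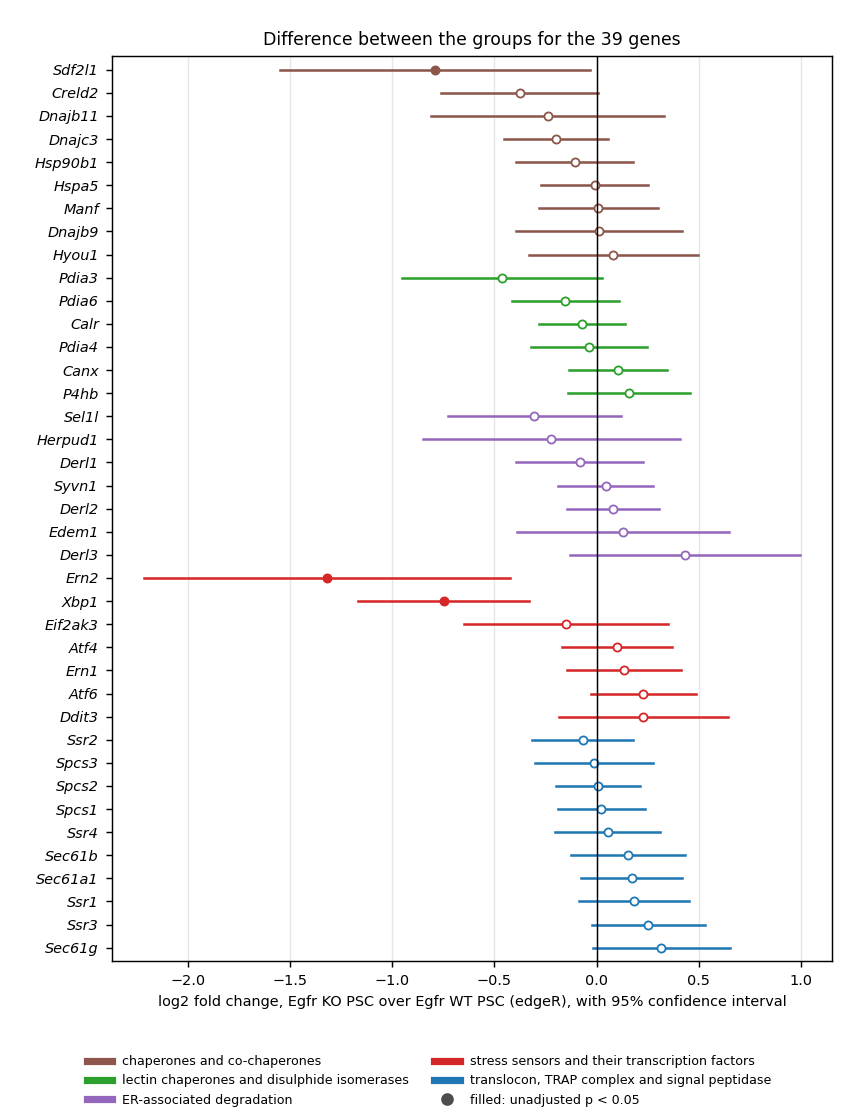
Log2 fold change (Egfr KO PSC divided by Egfr WT PSC) for each of the 39 genes from edgeR, with the 95% confidence interval as a line, ordered by role and then by value. Filled points are the 3 genes with an unadjusted p under 0.05, Sdf2l1, Ern2 and Xbp1, and all of them lie left of 0.

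Levels between genes are given in TPM, a unit that divides each count by transcript length and library depth, as summed from the deposited transcript values. Hspa5 was the most abundant member, with a mean of 1751 TPM over all 10 libraries, and Derl3 the least, with 2.03 TPM. The summed TPM of the 39 genes lay at 7694, 9341, 8118, 8584 and 8361 in Egfr KO PSC libraries 1 to 5, against 9141, 7930, 9377, 9552 and 7572 in Egfr WT PSC libraries 1 to 5. The sums of the groups overlapped over most of their range. Hspa5 alone made up between 18.5% and 23.6% of this sum. A mean of at least 100 TPM was reached by 20 members, and 5 members had less than 10 TPM. In the order of mean levels, 36 of the 38 neighbouring pairs overlapped in their range over libraries, and only 2 steps were clear: between Hspa5 and P4hb, and between Derl2 and Dnajb11. The median member differed 1.64-fold between its highest and its lowest library.

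**Figure D2:**
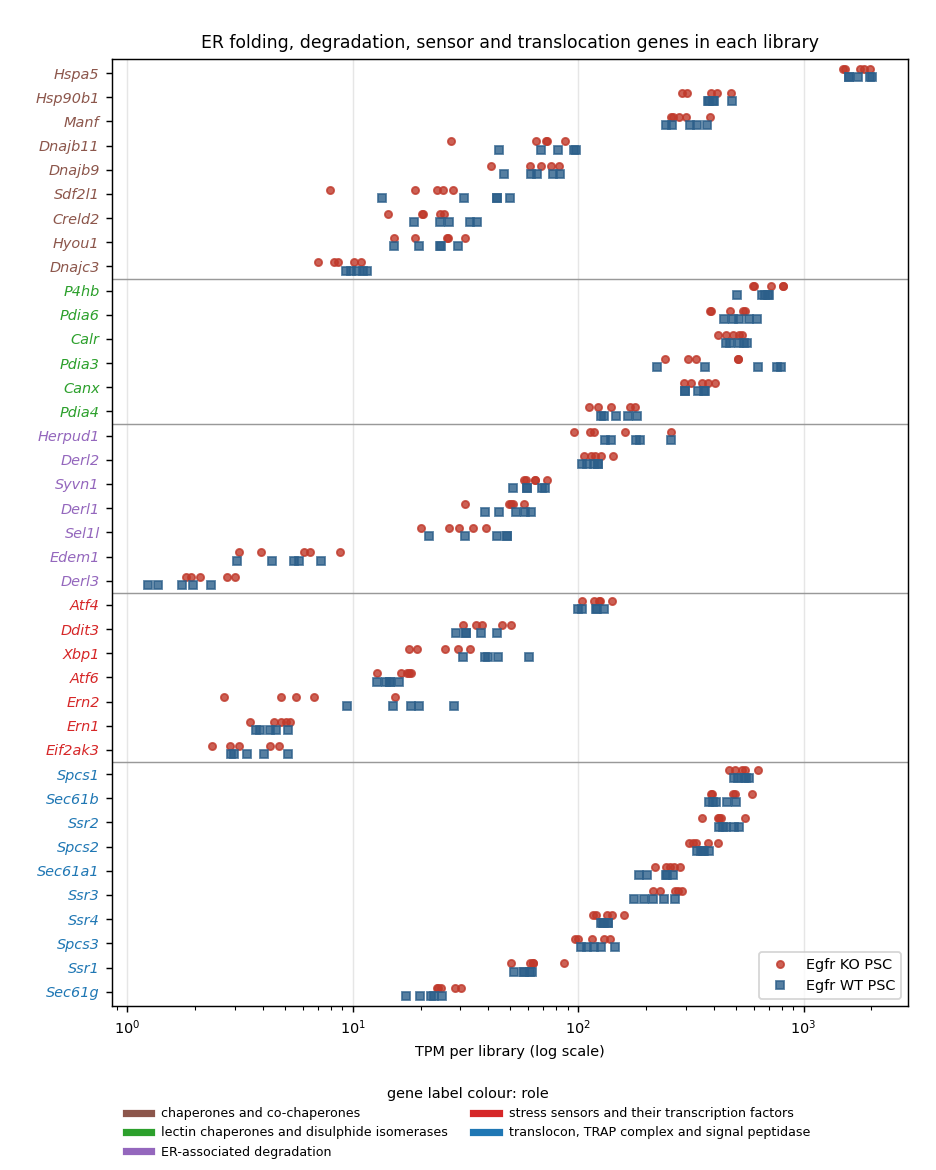
TPM of the 39 genes in each of the 10 libraries on a log axis, with Egfr KO PSC libraries as circles above and Egfr WT PSC libraries as squares below on each row, grouped by role. The levels span from about Derl3, at 2.03 TPM on average, to Hspa5, at 1751 TPM, and the 2 groups overlap on every row.

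Epithelial markers were abundant in every library. The markers of each other cell type summed to less, and several of them were lower with Egfr KO PSCs. Single islet and acinar markers still reached the level of some epithelial ones. Ins2 and Ctrb1 reached 560 and 351 TPM with Egfr KO PSCs and 377 and 281 TPM with Egfr WT PSCs. Epcam ranged from 163 to 253 TPM and from 116 to 292 TPM. The 8 epithelial markers summed to between 12920 and 20710 TPM with Egfr KO PSCs and between 13540 and 15810 TPM with Egfr WT PSCs. The 12 fibroblast markers summed to 154 to 478 TPM with Egfr KO PSCs and 195 to 423 TPM with Egfr WT PSCs, and 9 of them were lower with Egfr KO PSCs, 3 at an unadjusted edgeR p under 0.05. The 11 macrophage markers summed to 34.8 to 43.8 TPM with Egfr KO PSCs and 27.4 to 74.1 TPM with Egfr WT PSCs, and 7 of the 10 tested were lower, 6 of them at that p. The 5 erythroid markers summed to 2.09 to 10.2 TPM with Egfr KO PSCs and 19.9 to 115.8 TPM with Egfr WT PSCs, without overlap. All 7 endothelial markers were lower with Egfr KO PSCs, none at that p, with sums of 5.67 to 28.5 TPM and of 13.1 to 19.99 TPM with Egfr WT PSCs. The 13 markers of acinar cells, which hold much ER, summed to 159 to 707 TPM with Egfr KO PSCs and 252 to 717 TPM with Egfr WT PSCs, and their defining factor gene Ptf1a was below 0.1 TPM in every library. The 7 endocrine markers summed to 113 to 688 TPM with Egfr KO PSCs and 69.0 to 719 TPM with Egfr WT PSCs. Of the plasma and B cell markers given here, Igha was the highest, at up to 2.12 TPM with Egfr KO PSCs and 1.28 TPM with Egfr WT PSCs. Cd79a, Cd79b, Jchain and Ighm reached 0.448 TPM at most with Egfr KO PSCs and 0.583 TPM with Egfr WT PSCs, and Igkc, Ms4a1 and Mzb1 were below 0.1 TPM throughout. In bulk libraries fewer cells of a type and less RNA per cell cannot be told apart.

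Among the sensors and their factors, Xbp1 and Ern2 lay lower with Egfr KO PSCs, while the sensor genes Ern1, Atf6 and Eif2ak3 and the factor genes Atf4 and Ddit3 lay within 0.23 of 0 on the log2 scale. Of these 7 genes, 3 were lower and 4 higher, and none passed the test. Xbp1 lay at 33.3, 25.6, 29.2, 19.3 and 17.7 TPM in Egfr KO PSC libraries 1 to 5, against 40.0, 38.6, 60.7, 44.0 and 30.8 TPM in Egfr WT PSC libraries 1 to 5. The 2 groups overlapped only because Egfr KO PSC library 1 lay above Egfr WT PSC library 5. The means were 25.0 ± 6.59 TPM and 42.8 ± 11.1 TPM (SD, n = 5 each). Its log2 fold change was -0.75 (SE 0.19, 95% confidence interval -1.17 to -0.33), with an edgeR adjusted p of 0.396 and an unadjusted p of 0.00216, the lowest of the 39 genes. The DESeq2 adjusted p was 0.059, just above the threshold.

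The mean log2 level of the macrophage markers tended lower with Egfr KO PSCs as well. It lay between 0.18 and 1.06 with Egfr KO PSCs and between 0.82 and 2.30 with Egfr WT PSCs, on the log2 CPM scale. Of the 10 markers tested 7 were lower, while Cd68, Csf1r and Mrc1 had log2 fold changes of 0.15, 0.27 and 0.54. The mean weighs markers near the floor like the others. Among these, C1qc, Adgre1 and Ptprc had medians of 0.19, 0.07 and 0.25 TPM with Egfr KO PSCs, against 1.14, 0.28 and 0.93 TPM with Egfr WT PSCs. With this level as a covariate, the log2 fold change of Xbp1 was -0.46 and its unadjusted edgeR p 0.0748. The covariate lowered the number of low p-values in general. With it 3.16% of all genes had an unadjusted edgeR p under 0.05, against 8.15% without it. With the acinar markers as a covariate it was -0.74, and with the fibroblast markers -0.79. Whether macrophages took part in the Xbp1 difference was not tested.

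The share of Xbp1 mRNA spliced by IRE1 could not be measured. The 26 bases that IRE1 removes were found, in the GENCODE M21 sequences, in the 3 coding transcripts of Xbp1 that the quantification lists (Xbp1-201, Xbp1-203 and Xbp1-204), while Xbp1-202, a retained intron form, does not reach them. No listed transcript was the spliced form, so reads of both forms were counted together. The stretch on chromosome 11 is shown with the removed bases in capitals, as it is the site where an activity of IRE1 would be read.
Xbp1: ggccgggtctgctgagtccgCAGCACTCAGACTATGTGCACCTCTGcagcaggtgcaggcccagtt
Xbp1-201 held between 93.7% and 95.5% of the Xbp1 TPM with Egfr KO PSCs and between 92.3% and 95.7% with Egfr WT PSCs.

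Ern2, which encodes IRE1 beta, a form of the sensor found in mucus-producing epithelia, had the largest difference of the 39 genes. It lay at 15.4, 5.59, 6.76, 2.69 and 4.80 TPM in Egfr KO PSC libraries 1 to 5, against 28.1, 15.1, 18.2, 19.7 and 9.46 TPM in Egfr WT PSC libraries 1 to 5. In 4 of the 5 Egfr KO PSC libraries it was below every Egfr WT PSC library, and Egfr KO PSC library 1 overlapped with Egfr WT PSC libraries 2 and 5. The log2 fold change was -1.32 (SE 0.41, 95% confidence interval -2.21 to -0.42), with an unadjusted edgeR p of 0.00743. The edgeR adjusted p was 0.457 and the DESeq2 adjusted p 0.0941. Ern2 also varied most among the 39 genes, 10.5-fold between its highest and lowest library.

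Ern1, which encodes the widely expressed IRE1 alpha, did not follow Ern2. It lay at 4.48, 5.29, 5.08, 4.83 and 3.52 TPM in Egfr KO PSC libraries 1 to 5, against 3.86, 4.56, 5.17, 4.28 and 3.73 TPM in Egfr WT PSC libraries 1 to 5. The groups lay within each other (edgeR log2 fold change 0.13 with an SE of 0.13, adjusted p = 0.812). The difference between the 2 IRE1 genes in their response was not tested.

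Atf6, the gene of the membrane-bound sensor that is cut in the Golgi, lay at 17.4, 12.8, 18.1, 16.4 and 17.8 TPM in Egfr KO PSC libraries 1 to 5, against 16.0, 14.0, 14.6, 14.7 and 12.8 TPM in Egfr WT PSC libraries 1 to 5. All Egfr KO PSC libraries except library 2 were above all Egfr WT PSC libraries (log2 fold change 0.23, SE 0.12, edgeR adjusted p = 0.655). Eif2ak3, which encodes PERK, lay at 2.87, 2.37, 4.71, 3.13 and 4.32 TPM in Egfr KO PSC libraries 1 to 5, against 2.98, 3.41, 4.05, 2.89 and 5.16 TPM in Egfr WT PSC libraries 1 to 5. Egfr KO PSC libraries 1 and 2 were below all Egfr WT PSC libraries, and Egfr WT PSC library 5 was above all Egfr KO PSC libraries (log2 fold change -0.15, SE 0.23, edgeR adjusted p = 0.886).

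Atf4, the transcription factor gene downstream of PERK, lay at 124, 105, 141, 118 and 125 TPM in Egfr KO PSC libraries 1 to 5, against 121, 130, 105, 100.3 and 120 TPM in Egfr WT PSC libraries 1 to 5. Egfr KO PSC library 3 was above all Egfr WT PSC libraries and the other Egfr KO PSC libraries lay within their range (log2 fold change 0.10, SE 0.12, edgeR adjusted p = 0.859). Atf4 is controlled largely at translation, which mRNA levels do not show. Ddit3, which encodes the pro-apoptotic factor CHOP, lay at 37.4, 46.2, 30.9, 35.2 and 50.6 TPM in Egfr KO PSC libraries 1 to 5, against 31.9, 43.9, 32.0, 28.7 and 37.0 TPM in Egfr WT PSC libraries 1 to 5. Egfr KO PSC libraries 2 and 5 were above all Egfr WT PSC libraries and the other 3 lay within their range (log2 fold change 0.23, SE 0.19, edgeR adjusted p = 0.781).

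**Figure D3:**
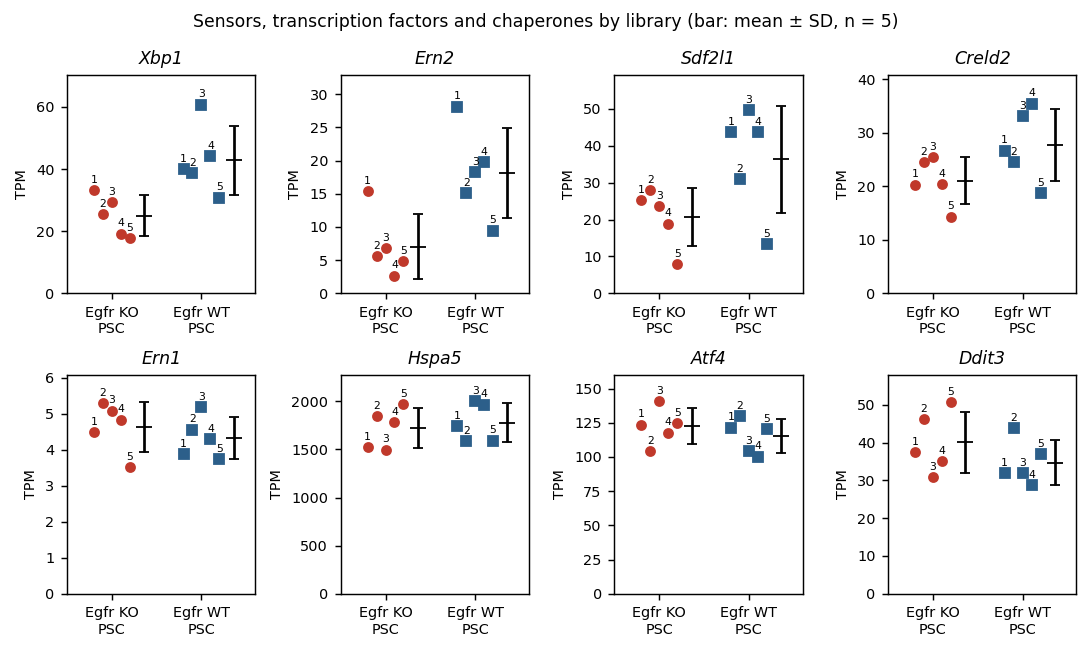
TPM of 8 genes by library, with Egfr KO PSC on the left and Egfr WT PSC on the right of each panel, the library number beside each point, and the mean ± SD of 5 libraries as a bar. Xbp1, Ern2 and Sdf2l1 lie lower with Egfr KO PSCs except for 1 or a few libraries, while Ern1, Hspa5, Atf4 and Ddit3 overlap.

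Of the 9 chaperone and co-chaperone genes, 6 were lower and 3 higher with Egfr KO PSCs, with log2 fold changes between -0.79 and 0.08, and none passed the test. Of these genes the main chaperone gene Hspa5 varied least between libraries and the co-chaperone gene Sdf2l1 most. Hspa5 lay at 1521, 1848, 1499, 1781 and 1969 TPM in Egfr KO PSC libraries 1 to 5, against 1739, 1589, 2007, 1967 and 1593 TPM in Egfr WT PSC libraries 1 to 5. The libraries of the 2 groups interleaved (log2 fold change -0.01, SE 0.12, 95% confidence interval -0.27 to 0.25, edgeR adjusted p = 0.992). Between its highest and lowest library Hspa5 varied only 1.34-fold.

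Sdf2l1, a co-chaperone gene whose product works with BiP and ERdj3, varied 6.23-fold. It lay at 25.2, 27.9, 23.6, 18.9 and 7.97 TPM in Egfr KO PSC libraries 1 to 5, against 43.8, 31.0, 49.6, 43.7 and 13.4 TPM in Egfr WT PSC libraries 1 to 5. Egfr WT PSC libraries 1 to 4 were above all Egfr KO PSC libraries, while Egfr WT PSC library 5 was above only Egfr KO PSC library 5. The log2 fold change was -0.79 (SE 0.35, 95% confidence interval -1.55 to -0.03, unadjusted p = 0.0428, edgeR adjusted p = 0.604). With the macrophage markers as a covariate it was -0.32, and the unadjusted p of Sdf2l1 was 0.05 or more in 10 of the 24 alternatives tried, among them leaving out any 1 of Egfr KO PSC libraries 3, 4 and 5 or of Egfr WT PSC libraries 1 to 4.

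Creld2, which encodes a secreted ER stress protein with isomerase activity, lay at 20.3, 24.5, 25.4, 20.5 and 14.3 TPM in Egfr KO PSC libraries 1 to 5, against 26.7, 24.5, 33.1, 35.4 and 18.7 TPM in Egfr WT PSC libraries 1 to 5. Egfr WT PSC libraries 1, 3 and 4 were above all Egfr KO PSC libraries, and library 5 was again the lowest of each group (log2 fold change -0.38, SE 0.18, edgeR adjusted p = 0.623). With the macrophage markers as a covariate the log2 fold change of Creld2 was -0.11. Dnajc3, which encodes the BiP co-chaperone p58IPK, lay at 8.29, 10.1, 10.9, 8.64 and 6.99 TPM in Egfr KO PSC libraries 1 to 5, against 9.33, 9.88, 11.1, 11.6 and 10.5 TPM in Egfr WT PSC libraries 1 to 5. Egfr KO PSC libraries 1, 4 and 5 were below all Egfr WT PSC libraries and the other 2 within them (log2 fold change -0.20, SE 0.12, edgeR adjusted p = 0.686).

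Among the other 5 chaperone genes, Hsp90b1, Manf, Dnajb9, Dnajb11 and Hyou1 had log2 fold changes between -0.24 and 0.08. Hsp90b1, the ER form of HSP90, averaged 374 ± 78.5 TPM with Egfr KO PSCs and 408 ± 43.3 TPM with Egfr WT PSCs. Manf, a secreted factor that binds BiP, averaged 297 ± 51.6 TPM with Egfr KO PSCs and 306 ± 53.7 TPM with Egfr WT PSCs. The J-domain co-chaperone genes Dnajb9 and Dnajb11 ranged from 41.0 to 82.3 TPM and from 27.2 to 87.7 TPM with Egfr KO PSCs, against 47.1 to 83.1 TPM and 44.7 to 97.7 TPM with Egfr WT PSCs. Hyou1, a nucleotide exchange factor of BiP, ranged from 15.2 to 31.6 TPM with Egfr KO PSCs and from 15.3 to 29.3 TPM with Egfr WT PSCs. Dnajb11, with a log2 fold change of -0.24 (SE 0.26), had the widest interval of the 5.

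The 6 lectin chaperone and disulphide isomerase genes split into 4 lower and 2 higher, with log2 fold changes between -0.46 and 0.16. Pdia3, the isomerase ERp57 that works with the lectin chaperones and in the loading of MHC class I, lay at 514, 513, 307, 332 and 242 TPM in Egfr KO PSC libraries 1 to 5, against 764, 365, 792, 629 and 225 TPM in Egfr WT PSC libraries 1 to 5. Egfr WT PSC libraries 1, 3 and 4 were above all Egfr KO PSC libraries, and Egfr WT PSC library 5 was the lowest of all 10. The log2 fold change was -0.46 (SE 0.22, 95% confidence interval -0.95 to 0.03, edgeR adjusted p = 0.642). The short form Pdia3-204 was given between 0% and 19.8% of the Pdia3 TPM with Egfr KO PSCs and between 0% and 25.5% with Egfr WT PSCs, so the TPM of Pdia3 depends on how reads were divided among its forms. The log2 fold change of Pdia3 was -0.29 with the macrophage markers as a covariate and -0.74 with the fibroblast markers. P4hb, the founding protein disulphide isomerase and the second most abundant member, lay at 597, 814, 603, 716 and 808 TPM in Egfr KO PSC libraries 1 to 5, against 673, 654, 705, 695 and 505 TPM in Egfr WT PSC libraries 1 to 5. Egfr KO PSC libraries 2, 4 and 5 were above all Egfr WT PSC libraries, and Egfr WT PSC library 5 was the lowest of all 10 (log2 fold change 0.16, SE 0.14, edgeR adjusted p = 0.794). Calr, the soluble lectin chaperone calreticulin, averaged 482 ± 48.0 TPM with Egfr KO PSCs and 509 ± 46.9 TPM with Egfr WT PSCs. Canx, its membrane-bound relative calnexin, averaged 350 ± 44.3 TPM with Egfr KO PSCs and 334 ± 32.9 TPM with Egfr WT PSCs. The isomerase genes Pdia4 and Pdia6 had log2 fold changes of -0.04 and -0.15. A processed copy of Calr, Calr-ps, was listed at no more than 0.266 TPM in a library, so little of the Calr signal was assigned to it.

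The 7 genes of ER-associated degradation split into 3 lower and 4 higher, with log2 fold changes between -0.30 and 0.43. Derl3, a channel-like derlin of secretory cells and the least abundant member, lay at 2.77, 2.995, 1.92, 2.11 and 1.83 TPM in Egfr KO PSC libraries 1 to 5, against 1.37, 1.24, 2.36, 1.75 and 1.97 TPM in Egfr WT PSC libraries 1 to 5. Egfr KO PSC libraries 1 and 2 were above all Egfr WT PSC libraries, and Egfr WT PSC libraries 1, 2 and 4 were below all Egfr KO PSC libraries (log2 fold change 0.43, SE 0.26, edgeR adjusted p = 0.698). It is the member with the fewest counts, down to 35 in a library. Its relatives Derl1 and Derl2 were closer to 0, at -0.08 and 0.08. Sel1l, the adaptor of the ubiquitin ligase HRD1, ranged from 20.2 to 39.04 TPM with Egfr KO PSCs and from 21.7 to 48.6 TPM with Egfr WT PSCs (edgeR log2 fold change -0.30 with an SE of 0.19, adjusted p = 0.717). Syvn1, the gene of HRD1 itself, averaged 63.4 ± 5.91 TPM with Egfr KO PSCs and 62.2 ± 8.15 TPM with Egfr WT PSCs. Herpud1, which organises the ligase and is induced by ATF6 and ATF4, ranged from 95.6 to 259 TPM with Egfr KO PSCs and from 132 to 258 TPM with Egfr WT PSCs. Edem1, a mannosidase-like lectin of this route, ranged from 3.14 to 8.82 TPM with Egfr KO PSCs and from 3.07 to 7.27 TPM with Egfr WT PSCs.

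The 10 genes of translocation and signal peptide removal were the steadiest role. Of them 8 were higher and 2 lower with Egfr KO PSCs, with log2 fold changes between -0.07 and 0.32, and the highest library was no more than 1.75 times the lowest for any of them. Sec61a1, the pore subunit of the Sec61 channel, lay at 245, 256, 266, 220 and 282 TPM in Egfr KO PSC libraries 1 to 5, against 263, 202, 247, 245 and 187 TPM in Egfr WT PSC libraries 1 to 5. Egfr KO PSC libraries 3 and 5 were above all Egfr WT PSC libraries, and Egfr WT PSC libraries 2 and 5 were below all Egfr KO PSC libraries (log2 fold change 0.17, SE 0.11, edgeR adjusted p = 0.72). Sec61g, a small subunit of the same channel, lay at 24.7, 23.5, 30.1, 24.0 and 28.4 TPM in Egfr KO PSC libraries 1 to 5, against 22.2, 23.1, 17.2, 19.95 and 24.8 TPM in Egfr WT PSC libraries 1 to 5. The groups overlapped only through Egfr WT PSC library 5, which lay above Egfr KO PSC libraries 1, 2 and 4 (log2 fold change 0.32, SE 0.15, 95% confidence interval -0.02 to 0.65, edgeR adjusted p = 0.642). Sec61b, the other small subunit, had a log2 fold change of 0.15 (SE 0.13).

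Ssr3, a subunit of the TRAP complex beside the channel, lay at 215, 278, 231, 268 and 289 TPM in Egfr KO PSC libraries 1 to 5, against 270, 196, 216, 242 and 177 TPM in Egfr WT PSC libraries 1 to 5. Egfr KO PSC libraries 2 and 5 were above all Egfr WT PSC libraries, and Egfr WT PSC libraries 2 and 5 were below all Egfr KO PSC libraries (edgeR log2 fold change 0.25 with an SE of 0.13, adjusted p = 0.647). The other TRAP genes Ssr1, Ssr2 and Ssr4 had log2 fold changes of 0.18, -0.07 and 0.05. Spcs1, a subunit of the signal peptidase complex and the third most abundant member, lay at 534, 625, 468, 552 and 499 TPM in Egfr KO PSC libraries 1 to 5, against 547, 512, 493, 573 and 557 TPM in Egfr WT PSC libraries 1 to 5. All Egfr WT PSC libraries lay inside the range of the Egfr KO PSC libraries (log2 fold change 0.02, SE 0.10, edgeR adjusted p = 0.968). Spcs2 and Spcs3, of the same complex, had log2 fold changes of 0.0052 and -0.01. The processed copy Spcs2-ps was listed at no more than 0.566 TPM.

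Library 5 of each group was the lowest of its group for several chaperone genes, though not for Hspa5. Egfr KO PSC library 5 was the lowest of its group for 15 of the 39 genes (38.5%), against 31.1% of all genes tested, and Egfr WT PSC library 5 for 19 (48.7%), against 27.7% of all genes tested. Egfr KO PSC library 5 was also the highest of its group for 8 genes (20.5%, against 16.8% of all genes tested). These were Hspa5, Herpud1, Sel1l, Ddit3, Sec61a1, Ssr3, Ssr4 and Spcs3. Egfr WT PSC library 5 was the highest for 4 (10.3%, against 24.9%). Among the 9 chaperone and co-chaperone genes the 2 libraries were the lowest for 5 and 6. Both were the lowest of their group for 9 genes, namely Hyou1, Dnajb11, Sdf2l1, Creld2, Pdia3, Syvn1, Derl1, Ern1 and Xbp1. The share of all genes lowest in both was not counted, and the shared number only names the libraries. The acinar marker sum was 603.5 TPM in Egfr KO PSC library 5 and 716.6 TPM in Egfr WT PSC library 5, the median of the Egfr KO PSC group and the highest of the Egfr WT PSC group. The macrophage marker sum was 43.8 TPM in Egfr KO PSC library 5, the highest of its group, and 32.2 TPM in Egfr WT PSC library 5, while the mean log2 level of these markers, at 0.18 and 0.82, was the lowest of each group. Whether these cells took part in the levels of the chaperone genes in these libraries was not tested.

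A fit without these 2 libraries was chosen after seeing the values of these same genes. In it 7 members had an unadjusted edgeR p under 0.05 (17.9%), against 11.7% of all genes. All 7 were lower with Egfr KO PSCs, and the share of all genes lower at that p is not given for this setting. They were Xbp1, Ern2, Sdf2l1, Creld2, Pdia3, Sel1l and Herpud1. Xbp1, Sdf2l1, Creld2 and Pdia3 are also among the genes named above as lowest in both libraries, so the count is no independent support. The log2 fold change of Xbp1 was then -0.75, that of Sdf2l1 -0.79 and that of Herpud1 -0.64. No member passed the adjusted threshold there either.

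**Figure D4:**
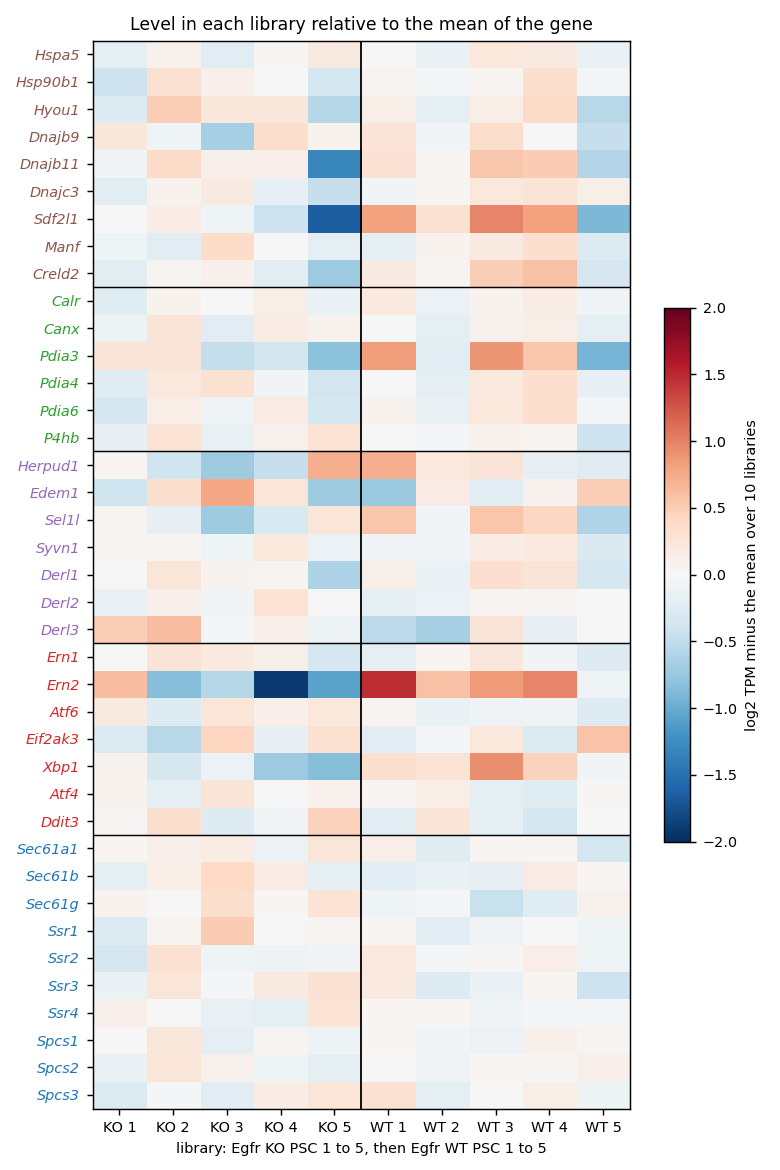
Log2 TPM of each of the 39 genes in each library minus the mean of that gene over all 10 libraries, on a colour scale from -2 to 2, with Egfr KO PSC libraries 1 to 5 on the left and Egfr WT PSC libraries 1 to 5 on the right, and gene names coloured by role. Library 5 of both groups is blue for Dnajb11, Sdf2l1, Creld2 and Pdia3, and the translocation genes at the bottom are pale throughout.

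The 9 genes with an ERSE in the promoter window spanned the whole range of levels, from 2.03 TPM for Derl3 to 1751 TPM for Hspa5. Of them 6 were lower and 3 higher with Egfr KO PSCs, with a median log2 fold change of -0.07 and a range of -0.38 to 0.43. None of the 9 had an unadjusted p under 0.05, and the lowest was 0.0547, for Creld2. Both genes with an ERSE-II were lower, Dnajb11 by a log2 fold change of -0.24 (SE 0.26) and Herpud1 by -0.22 (SE 0.29). Their unadjusted edgeR p-values were 0.379 and 0.458. Of all genes tested 49.9% were lower.

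Other genes of the pathway were read from 8 lists, and neither edgeR nor DESeq2 called any of them. Over all genes tested, 8.15% had an unadjusted edgeR p under 0.05, and 4.6% were lower at that p. In the list of other ER folding enzymes 19 of 33 tested genes were lower and 14 higher, with a median log2 fold change of -0.08, and 3 had an unadjusted edgeR p under 0.05, all lower. Agr2, a disulphide isomerase of mucus-producing epithelia, lay at 453, 334, 345, 121 and 191 TPM in Egfr KO PSC libraries 1 to 5, against 494, 404, 563, 896 and 413 TPM in Egfr WT PSC libraries 1 to 5. Egfr WT PSC libraries 1, 3 and 4 were above all Egfr KO PSC libraries, and Egfr KO PSC libraries 2 to 5 were below all Egfr WT PSC libraries (log2 fold change -0.91 with an SE of 0.32 and an edgeR adjusted p of 0.498). Cnpy2, an ER-resident saposin-like protein, averaged 135 ± 20.1 TPM with Egfr KO PSCs and 164 ± 8.18 TPM with Egfr WT PSCs (edgeR log2 fold change -0.25 with an SE of 0.09, adjusted p = 0.499).

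Among the PERK and ATF4 target genes 11 of 28 tested were lower and 17 higher, with 2 lower and 1 higher at an unadjusted edgeR p under 0.05. Stc2, a secreted glycoprotein gene, averaged 8.07 ± 3.11 TPM with Egfr KO PSCs and 14.3 ± 6.61 TPM with Egfr WT PSCs. Chac1, a glutathione-degrading enzyme gene downstream of ATF4, averaged 6.04 ± 1.29 TPM with Egfr KO PSCs and 4.58 ± 0.501 TPM with Egfr WT PSCs. Their log2 fold changes had opposite signs, -0.78 and 0.42. In the list of other sensors and regulators 10 of 16 were lower and 6 higher, 2 of them at that p and both lower. Creb3l4, an ATF6-like membrane-bound factor, averaged 17.8 ± 4.95 TPM with Egfr KO PSCs and 26.7 ± 7.88 TPM with Egfr WT PSCs (log2 fold change -0.55). Wfs1, an ER membrane glycoprotein that restrains ATF6, averaged 33.1 ± 7.60 TPM with Egfr KO PSCs and 26.7 ± 6.01 TPM with Egfr WT PSCs (log2 fold change 0.35).

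In the list of other degradation genes 9 of 21 were lower and 12 higher, 1 of them lower at an unadjusted edgeR p under 0.05, namely Ubxn4, an ER-anchored partner of the p97 ATPase (log2 fold change -0.33). The ER-anchored ubiquitin ligase gene Rnf5 had a log2 fold change of 0.25. Of 35 tested genes of translocation, membrane insertion and glycosylation 19 were lower and 16 higher, and 2 had that p, both lower. Ddost, a subunit of the oligosaccharyltransferase, averaged 61.7 ± 11.8 TPM with Egfr KO PSCs and 86.7 ± 20.2 TPM with Egfr WT PSCs (log2 fold change -0.46). Sec11c, a catalytic subunit of the signal peptidase, averaged 133 ± 15.2 TPM with Egfr KO PSCs and 180 ± 42.2 TPM with Egfr WT PSCs (log2 fold change -0.37), whereas Spcs1, Spcs2 and Spcs3 of the same complex lay near 0.

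Of 25 genes of ER exit and retrieval 14 were lower and 11 higher, and 1 was higher at an unadjusted edgeR p under 0.05. This was Sec13, a COPII coat gene, at 144, 157, 181, 163 and 153 TPM in Egfr KO PSC libraries 1 to 5, against 133, 124, 129, 150 and 131 TPM in Egfr WT PSC libraries 1 to 5. Its groups overlapped only through Egfr WT PSC library 4, which lay above Egfr KO PSC library 1 (log2 fold change 0.29, SE 0.09, edgeR adjusted p = 0.439). Lman1, a cargo receptor gene of this route, had a log2 fold change of -0.30. The 6 ER-phagy receptor genes split into 3 lower and 3 higher, none at that p, with Atl3 at 0.27 and Rtn3 at -0.23. Of 15 heat shock genes of the cytosol and mitochondria 9 were lower and 6 higher, 2 of them lower at that p. These were Dnajb1, a co-chaperone of HSP70, and the small heat shock gene Hspb1, both with a log2 fold change of -0.50.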

How the data were processed

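The authors deposited 1 transcript quantification per library, with an estimated count, an effective length and a TPM value for each of 147828 transcripts. The submitters' processing notes name Salmon 1.9.0 and GRCm39 for the deposited expected counts and TPM values; the release of the annotation was not stated in what was used here. Per the labels' protocols, libraries were made with a low-input kit, and the number of PCR cycles followed the RNA input, which is not given per library. The sources used name no molecular identifiers, so duplicates cannot be told apart.

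Transcripts were assigned to genes by identifier with GENCODE M21 (names only), which matched 137063 of them, holding 98.1% to 98.7% of the counts of a library; the other 10765 were left out. Symbols were summed over their gene identifiers (Ddit3 had 2, the second at 0). Gene totals were 39534055 to 52920545 counts with Egfr KO PSCs and 42040398 to 53816086 with Egfr WT PSCs, and mitochondrial genes held 1.85% to 4.51%. No 2 libraries agreed within sampling noise (lowest chi-square per degree of freedom of 45 pairs, 34.6).

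The deposited estimated counts were rounded and fitted with edgeR 4.0.16 in R 4.3.3 (quasi-likelihood F test, TMM, default expression filter with a minimum count of 10, no covariate), with Benjamini-Hochberg adjustment over all 17495 genes tested and a threshold of 0.05. Deposited TPM values were summed per gene to give levels. Alternatives used DESeq2 1.42.0, limma 3.58.1, other scalings, filters, pseudocounts of 1 and 0.1 TPM, an offset for the deposited effective lengths, covariates, and each library left out. The pipeline was also run on simulated data, with a capped spread between libraries and changes placed only in genes of higher counts. That run does not cover the most variable genes or those of low counts. Groups came from the labels, and replicate numbers only name libraries. The members and lists were chosen with earlier results of these data known. Values per library are given for the 10 members of lowest p, the 3 of highest and the 3 of lowest mean TPM, and the main sensors, factors, chaperone and channel; 2 genes of lowest p with a mean of at least 5 TPM are named per pathway list. Promoter letters are from RefSeq; Hyou1, Manf, Derl1, Ern2, Atf6, Sec61a1, Ssr2 and Spcs3 had no window in the table. Of 36 translocation names, Tusc3 was not matched.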

Additional observations from a re-analysis of the deposited data

Results flagged for a closer look

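In 2 of the 78 groups of 5 libraries examined, 1 library stood far from the others by Dixon's criterion, and chance flags about 1 in 20 groups. Hsp90b1, the ER form of HSP90, ranged from 290 to 478 TPM with Egfr KO PSCs. With Egfr WT PSCs it lay at 482.9 TPM in library 4, above the other 4 libraries at 378 to 402 TPM. P4hb, the protein disulphide isomerase, ranged from 597 to 814 TPM with Egfr KO PSCs. With Egfr WT PSCs it lay at 504.6 TPM in library 5, below the other 4 libraries at 654 to 705 TPM.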

How the results depend on the processing

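No member and no pathway list gene was called in any of the 24 alternatives tried, and the lowest adjusted p of a member there was 0.059, for Xbp1 with DESeq2. The number of members with an unadjusted p under 0.05 was 3 with edgeR. It was 5 without an expression filter (12.8%, against 6.42% of all genes) and 10 with limma voom (25.6%, against 13% of all genes). It was 5 with the fibroblast markers as a covariate (12.8%, against 9.16% of all genes) and 2 with the macrophage markers (5.13%, against 3.16%). It was 7 without library 5 of both groups, an alternative chosen after seeing the values of these members. The acinar covariate was also chosen after seeing the data. The number was 2 to 7 with each library left out. The 7 came without Egfr WT PSC library 5, and the values of 5 without Egfr KO PSC libraries 1, 2 or 3. The values of 2 came without Egfr KO PSC library 4 or Egfr WT PSC libraries 3 or 4. Over all genes, 0 were called with edgeR, 1 with library totals, 1 without a filter, 132 with DESeq2, 3 with limma voom, 2 on log2(TPM + 1), 1 on log2(TPM + 0.1), 3 with the acinar covariate, 1 without library 5 of both groups, and 0 to 4 with each library left out.

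Of 936 log2 fold changes of members, 872 kept their direction and 64 reversed, in 17 members. Xbp1, Ern2 and Sdf2l1 stayed lower throughout, at -0.87 to -0.46, -1.83 to -1.09 and -1.08 to -0.32. However, the unadjusted edgeR p of Xbp1 rose above 0.05 with the macrophage covariate (0.0748), and the unadjusted p of Sdf2l1 did so in 10 alternatives. That of Ern2 stayed under 0.05 in all 24 alternatives, with no adjusted p under 0.05. With the macrophage covariate 3.16% of all genes had an unadjusted edgeR p under 0.05, against 8.15% in the main fit. Reversed values were -0.0155 (Dnajb9) and -0.00505 (Spcs2) with library totals, and -0.159 (Manf) with limma voom. On log2(TPM + 1) they were -0.0434 (Dnajb9), -0.0409 (Manf), -0.00667 (Spcs1) and -0.0277 (Spcs2), and on log2(TPM + 0.1) -0.0443 (Dnajb9), -0.0411 (Manf), -0.00669 (Spcs1) and -0.0278 (Spcs2). With the length offset they were -0.0275 (Manf) and -0.00518 (Spcs2), and with the number in the names of the deposited quantifications as a factor -0.0362 (Manf). With the fibroblast covariate they were -0.148 (Hyou1), -0.255 (Dnajb9), -0.0446 (Canx), -0.0801 (P4hb), -0.0863 (Syvn1), -0.0209 (Derl2), 0.181 (Eif2ak3) and -0.0103 (Spcs2). With the macrophage covariate they were -0.106 (Dnajb9), 0.124 (Dnajb11), 0.0923 (Pdia4), 0.0789 (Derl1) and -0.0267 (Spcs1). Leaving out 1 library, or library 5 of both groups, gave ranges across 0 for Hspa5 (-0.110 to 0.0580), Dnajb9 (-0.108 to 0.155), Pdia4 (-0.101 to 0.0355), Spcs3 (-0.124 to 0.0559), Hyou1 (-0.0292 to 0.192), Spcs1 (-0.0231 to 0.0833), Spcs2 (-0.0563 to 0.0612), Manf (-0.0758 to 0.0805), Edem1 (-0.00911 to 0.404), Syvn1 (-0.0185 to 0.0924), Derl1 (-0.155 to 0.0217), Ssr4 (-0.0392 to 0.109) and Eif2ak3 (-0.299 to 0.0274). The causes were not tested.

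The Xbp1 spliced share gave no value under any setting. No paired analysis was possible because the replicate numbers follow accession order and the labels pair no libraries.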
